A study of Mus musculus with 12 samples.

Results

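Fat cells that burn fuel to make heat also secrete proteins that act on nerves, liver, brain, vessels and neighbouring cells. Described here are 7 genes for such factors, taken by name from the 55401 genes counted in subcutaneous white adipose tissue (scWAT): *Bmp8b*, *Nrg4*, *Pm20d1*, *Metrnl*, *Gdf15*, *Il6* and *Slit2*. The tissue came from female mice, and 12 RNA-seq libraries were made, 3 in each of 4 groups. Wild-type (*Jmjd1a* +/+) and *Jmjd1a* HY/HY mice were 16 weeks old, spent 1 week of acclimation at 30°C, where a mouse needs no extra heat, and then stayed for 1 week at 30°C or at 8°C. No agent was given, and the temperature and the genotype were the only labelled differences between the groups. HY is a knock-in allele of *Jmjd1a*, made by CRISPR-Cas9 in C57BL/6J eggs, that encodes a histone demethylase without catalytic activity. The mutation is present in every cell of the mouse, so the comparison between genotypes is not limited to adipocytes, and the mice came from 1 of the lines made. Counts of reads per gene do not read the mutated base and so cannot check the genotype. The question behind the design is how the cold response of scWAT depends on the demethylase activity of JMJD1A.

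In the cold, sympathetic nerves release norepinephrine onto scWAT, and beige adipocytes that express *Ucp1* appear among the white ones. BMP8B is a ligand of the TGF-beta superfamily that raises the response of brown fat to norepinephrine, and NRG4 is an EGF-like ligand of the ERBB3 and ERBB4 receptors that lowers lipid synthesis in liver. PM20D1 is an enzyme released by thermogenic adipocytes that joins fatty acids to amino acids and also splits them. The products can uncouple mitochondria without UCP1. METRNL (meteorin-like) is a circulating protein that acts on immune cells and for which KIT is a known receptor. GDF15, a stress-induced hormone, signals in the hindbrain through GFRAL and RET. IL6 is a cytokine that binds IL6RA and the shared subunit IL6ST, and SLIT2 is a guidance protein for ROBO receptors, a fragment of which is released by beige fat.

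The libraries held 13592629 to 26352081 read pairs counted on the sense strand of genes, with fewer in the groups at 8°C (13592629 to 17955584) than at 30°C (18305586 to 26352081). Levels are given as CPM, the counts of a gene scaled to one common library total, with library sizes scaled by TMM, a method that sets aside the most divergent genes. The 8 markers of thermogenic adipocytes summed to 65.5 to 242 CPM in the 6 libraries at 30°C. In the cold the sums were 8350 to 9270 CPM for wild-type and 533 to 1680 CPM for HY/HY libraries. All 8 were called higher in the cold in wild-type mice, as were 10.3% of all genes. White adipocyte markers were high in every library (13600 to 37000 CPM summed over 6 genes). Wild-type replicate 2 at 30°C stood apart in skeletal muscle markers (961 CPM over 5 genes against 2.60 to 21.0 in the other libraries), and mammary epithelium markers were present in every library (536 to 3730 CPM over 7 genes). The tissue is bulk, so fewer cells of a type and less RNA per cell cannot be told apart. Nothing in the labels names a batch.

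In what follows, a called gene has an adjusted p below 0.05 in edgeR's quasi-likelihood test over 16540 genes and a fold change above 1.5 or below 0.67. For the interaction (the change with cold in HY/HY minus the change with cold in wild-type libraries) the adjusted p alone decided. Of the 7 genes, 5 passed the filter on low counts, and *Gdf15* and *Il6* did not. In wild-type mice, 2 of the 5, *Bmp8b* and *Pm20d1*, rose at 8°C and none fell, against 10.3% of all genes called higher and 6.93% called lower. In HY/HY mice, 0 of the 5 were called by cold, where 0.181% of all genes were called higher and 0.0665% lower. Unadjusted p was above 0.05 for each of the 5 in that comparison, and DESeq2 called 0 as well. A fit of the HY/HY libraries alone called 0 of 15780 genes. The number over all genes moved widely in this comparison. DESeq2 called 216 higher and 94 lower. Without HY/HY replicate 3 at 30°C, edgeR called 461 higher and 203 lower, and still 0 of the 5. At 8°C, 2 of the 5 (again *Bmp8b* and *Pm20d1*) were lower in HY/HY than in wild-type mice and none was higher, with 4.42% of all genes called lower and 1.51% higher. At 30°C, 0 of the 5 differed between the genotypes by this rule, against 0.562% of genes called higher and 0.441% lower. DESeq2 also called 0 at 30°C, and *Pm20d1* alone had an unadjusted p under 0.05. The interaction called 1 of the 5, *Pm20d1*, in the lower direction, with 2.07% of all genes called lower and 0.169% higher. The libraries of both groups lay apart for *Bmp8b* and *Pm20d1* among the 5 with cold in wild-type mice and between genotypes at 8°C and at 30°C, and for none with cold in HY/HY mice. Over all genes that share was 43.4%, 35.4%, 18.3% and 18.3%, respectively. With the replicate number as a block, cold in HY/HY mice called 128 genes higher and 32 lower of all in place of 30 and 11, and still 0 of the 5. With library totals in place of TMM, the median of all genes in the wild-type cold response moved from -0.07 to -0.41 on the log2 scale. The split of called genes there went from 1707 higher and 1147 lower to 1057 and 4144, at 8°C from 249 higher and 731 lower to 535 and 480, and for the interaction from 28 and 342 to 43 and 186.

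**Figure D1:**
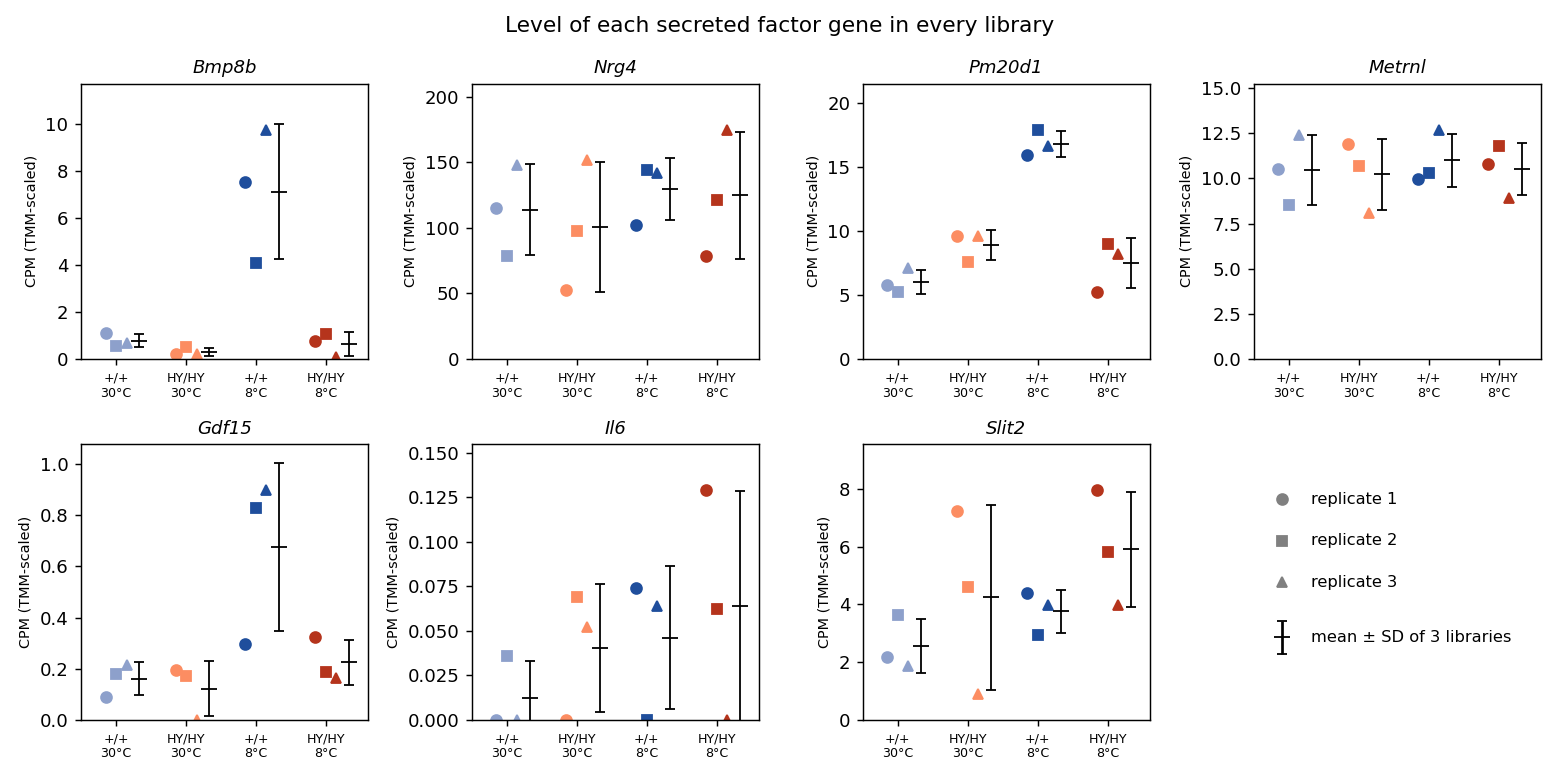
CPM (vertical axes, linear, a scale of its own for each gene) of the 7 genes in each of the 12 libraries, by genotype and temperature, with the mean ± SD of 3 libraries. The 3 wild-type libraries at 8°C lie above all others for *Bmp8b* (4.07 to 9.75 CPM) and *Pm20d1* (15.9 to 17.9 CPM), while the groups overlap for *Nrg4*, *Metrnl* and *Slit2*. *Il6* rests on 0 to 2 counts in each library.

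RefSeq start-site sequences (build GRCm38.p6, 250 bases before to 50 after the start) were matched for 6 of the 7 genes, all but *Pm20d1*. Of these, 3 are shown: the gene called in the cold, the gene with the highest level, and one with a motif match. Capitals mark the match, and lower case sequences held none of the motifs searched. The windows of *Bmp8b* and *Slit2* begin inside the gene, after its first base at 123104308 and 47981291. The sequence before that base was not searched.
Bmp8b, chr4:123104911-123105210, + strand: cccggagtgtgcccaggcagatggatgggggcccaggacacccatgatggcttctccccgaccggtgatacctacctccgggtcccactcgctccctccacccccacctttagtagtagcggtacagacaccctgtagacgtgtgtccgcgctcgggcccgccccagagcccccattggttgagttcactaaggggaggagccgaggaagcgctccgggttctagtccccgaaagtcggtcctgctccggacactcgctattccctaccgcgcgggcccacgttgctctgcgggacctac
Nrg4, chr9:55283576-55283875, - strand: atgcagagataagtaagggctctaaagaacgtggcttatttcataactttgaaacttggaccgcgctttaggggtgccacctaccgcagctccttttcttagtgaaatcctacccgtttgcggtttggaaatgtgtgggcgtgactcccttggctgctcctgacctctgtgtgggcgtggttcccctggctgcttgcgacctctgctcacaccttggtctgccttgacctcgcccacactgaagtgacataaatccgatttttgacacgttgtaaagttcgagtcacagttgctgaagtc
Il6, chr5:30012864-30013163, + strand: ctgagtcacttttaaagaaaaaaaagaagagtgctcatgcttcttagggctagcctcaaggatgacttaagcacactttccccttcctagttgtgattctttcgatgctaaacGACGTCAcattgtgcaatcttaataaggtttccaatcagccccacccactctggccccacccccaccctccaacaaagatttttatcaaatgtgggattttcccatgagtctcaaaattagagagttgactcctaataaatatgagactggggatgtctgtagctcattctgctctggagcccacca
The *Il6* match, GACGTCA, begins 137 bases before the start and is the reverse complement of the cyclic AMP response element without its last letter, TGACGTC, which 3.21% of 32851 mouse start-site windows hold on either strand. The full element, TGACGTCA, was in none of the windows of the 6 genes and in 1.79% of all. A second start site of *Gdf15* had an E-box, CACGTG, 83 bases before it, a motif found in 7.15% of windows. No window of the 6 genes held the estrogen-related receptor element TCAAGGTCA (0.423% of all windows), the direct repeat of receptor half-sites with 1 base between (0.0396%) or the ATF4 with C/EBP element TGATGNAAT (0.965%). These are descriptions of the letters in the windows. No count of reads at these sites was used here.

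Of the ligands, *Bmp8b* had the largest fitted change among the 5 genes tested. Its gene lies on chromosome 4 (GRCm38, 123104308 to 123126094). In wild-type mice at 30°C the libraries had 1.09, 0.541 and 0.691 CPM, from 13 to 24 counts. At 8°C they had 7.51, 4.07 and 9.75 CPM, from 54 to 152 counts, and each of these lay above each library at 30°C. The log2 fold change was 3.20 (SE 0.54, 95% interval 2.02 to 4.39, adjusted p = 0.00173), a 9.20-fold rise. Without replicate 2 at 30°C, the library rich in muscle RNA, it was 2.98 (adjusted p = 0.0109). HY/HY libraries at 30°C had 0.194, 0.516 and 0.208 CPM, and those at 8°C had 0.777, 1.06 and 0.0812 CPM. The HY/HY groups overlapped, since replicate 3 at 8°C held 1 count and was the lowest library of all. Their cold response of 1.06 on the log2 scale had an interval of -0.41 to 2.52 (adjusted p = 0.497), which holds 0 and also overlaps the interval of the wild-type response.

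Between genotypes at 8°C, *Bmp8b* was lower in HY/HY mice than in wild-type mice, with a log2 change of -3.41 (SE 0.57, 95% interval -4.66 to -2.16, adjusted p = 0.00564). The group means were 7.11 ± 2.86 CPM and 0.640 ± 0.505 CPM (SD, n = 3), and no HY/HY library reached the lowest wild-type library. At 30°C the means were 0.773 ± 0.282 and 0.306 ± 0.182 CPM. Every HY/HY library was there below every wild-type library, as was the case in either direction for 18.3% of genes in that comparison, but the change of -1.26 was not called (interval -2.64 to 0.12, adjusted p = 0.31). The interaction for *Bmp8b* was -2.15 (SE 0.87, 95% interval -4.05 to -0.24) with an adjusted p of 0.269 over all genes, so a difference between the 2 cold responses was not called. These *Bmp8b* values moved with single libraries: without HY/HY replicate 2 at 30°C the cold response of HY/HY mice was 1.70, the change at 30°C -1.90 and the interaction -1.50, and without HY/HY replicate 2 at 8°C the cold response was 0.51 and the interaction -2.69. None of them was called with any library left out. In order of mean level the wild-type group at 8°C came first, and each of the other groups overlapped with its neighbour: wild-type mice at 30°C with HY/HY mice at 8°C, and these with HY/HY mice at 30°C.

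*Bmp8b* overlaps *Oxct2b*. On the strand opposite to *Bmp8b* the libraries had 53 to 185 counts, with 85 to 185 at 30°C and 53 to 93 in the less deep libraries at 8°C, against 1 to 152 on its own strand. Their part in the counts of *Bmp8b* was not tested. With the strands counted together and reads on both genes left out, *Bmp8b* had 50 to 143 counts in the wild-type libraries of the cold and 1 to 21 in all others. Both calls held with these counts.

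*Pm20d1* (chromosome 1, 131797385 to 131821472) had a smaller change than *Bmp8b* and less spread. In wild-type mice it stood at 5.76, 5.23 and 7.07 CPM at 30°C and at 15.9, 17.9 and 16.6 CPM at 8°C, from 127 to 258 counts. The groups were apart by more than their spread, and the cold group had the smallest coefficient of variation of any group of these genes (6.0%). The log2 fold change was 1.48 (SE 0.20, 95% interval 1.05 to 1.92, adjusted p = 3.7e-04), or 2.79-fold, and 1.39 without replicate 2 at 30°C (adjusted p = 0.00283). In HY/HY mice the libraries had 9.57, 7.57 and 9.62 CPM at 30°C and 5.24, 8.94 and 8.20 CPM at 8°C. These overlapped, with a log2 change of -0.26 (95% interval -0.69 to 0.18, adjusted p = 0.584), an interval that does not reach the lower bound of the wild-type response.

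The difference between both cold responses of *Pm20d1* was -1.74 (SE 0.28, 95% interval -2.35 to -1.13, adjusted p = 0.0132), the only interaction called among the 5 genes. It was -1.65 (adjusted p = 0.0405) without wild-type replicate 2 at 30°C. At 8°C, HY/HY mice had 7.46 ± 1.95 CPM against 16.8 ± 1.01 CPM in wild-type mice (SD, n = 3), with no overlap, a log2 change of -1.17 (SE 0.20, 95% interval -1.60 to -0.73) and an adjusted p of 0.00618. At 30°C the order was the other way round: 8.92 ± 1.17 CPM in HY/HY mice and 6.02 ± 0.946 CPM in wild-type mice. All 3 HY/HY libraries were there above all 3 wild-type libraries, as for 18.3% of all genes in either direction, and the change of 0.57 (interval 0.14 to 1.00) had an adjusted p of 0.159 and was not called. Neighbours in the order of mean level overlapped, from wild-type mice at 30°C through HY/HY mice at 8°C to HY/HY mice at 30°C, and wild-type mice at 8°C stood above them.

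**Figure D2:**
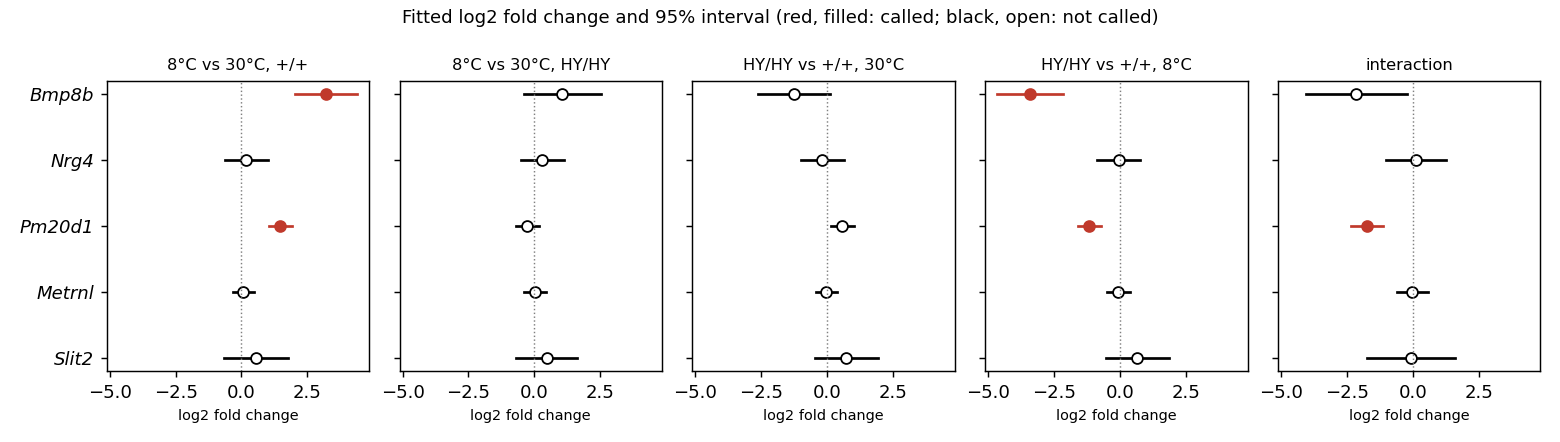
Fitted log2 fold change (horizontal axes) with its 95% interval for the 5 genes that passed the filter, in the 5 comparisons; filled red points were called. *Bmp8b* (3.20) and *Pm20d1* (1.48) rose in the cold in wild-type mice and were lower in HY/HY mice at 8°C (-3.41 and -1.17). The intervals of *Nrg4*, *Metrnl* and *Slit2* hold 0 in all 5 comparisons.

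Several markers moved with these results. Of all genes, 4.42% were called lower and 1.51% higher in HY/HY mice at 8°C. With cold, 10.3% were called higher in wild-type mice and 0.181% in HY/HY mice. At 8°C, 7 of the 8 thermogenic adipocyte markers were called lower in HY/HY mice (median log2 change -2.54), of which *Cox7a1* alone was kept in every alternative. With cold in HY/HY mice, 3 of the 8 were called higher. The call was lost in 1 alternative for *Ucp1*, in 4 for *Elovl3* and in 8 for *Cox7a1*. The alternative that lost *Ucp1*, a fit of the HY/HY libraries alone, called 0 of 15780 genes. *Ucp1* itself had 5480 ± 517 CPM in wild-type mice and 575 ± 347 CPM in HY/HY mice at 8°C (SD, n = 3), and 0.116 to 4.58 CPM at 30°C. Within the HY/HY group at 8°C, replicate 3 had the lowest thermogenic sum (533 CPM) and the lowest *Bmp8b*, whereas the lowest *Pm20d1* was in replicate 1, where the thermogenic sum was 1280 CPM. Macrophage markers summed to 122 to 135 CPM in wild-type mice and 208 to 277 CPM in HY/HY mice at 8°C, and 2 of the 6 (*Csf1r* and *Mrc1*) were called higher there, *Csf1r* not in every alternative. Of the 6 white adipocyte markers, 2 were called higher in HY/HY mice at 8°C (*Lep* at 1.99 and *Retn* at 0.79), and both calls were lost in 5 alternatives. With cold in wild-type mice, 3 of the 4 endothelial markers were called higher (*Pecam1* at 0.71, *Cdh5* at 0.81 and *Kdr* at 0.83), none of them in every alternative, and their sum was 376 to 582 CPM at 30°C against 706 to 991 CPM at 8°C. The part of these cell types in the levels of *Bmp8b* and *Pm20d1* was not tested.

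**Figure D3:**
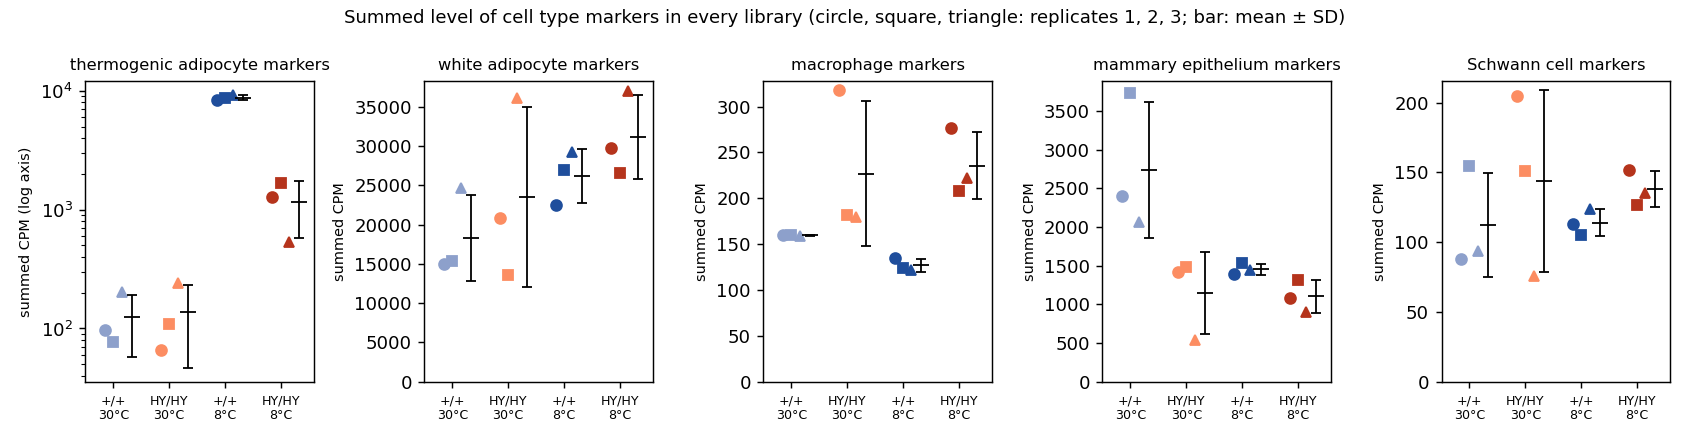
Summed CPM of marker genes of 5 cell types in each library (vertical axes; the thermogenic axis is logarithmic, the others are linear), with the mean ± SD of 3 libraries. Thermogenic adipocyte markers are at 8350 to 9270 CPM in wild-type mice and 533 to 1680 CPM in HY/HY mice at 8°C, and at 65.5 to 242 CPM at 30°C.

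*Nrg4* (chromosome 9, 55220222 to 55283654) had the highest level per length of the 7 genes in each group, at 16.6 to 21.3 CPM per kilobase of exon, ahead of *Metrnl* at 6.44 to 6.92. Wild-type libraries had 115, 78.6 and 148 CPM at 30°C and 102, 144 and 142 CPM at 8°C. HY/HY libraries had 52.3, 97.7 and 152 CPM at 30°C and 78.7, 121 and 175 CPM at 8°C. The spread inside a group was thus wide and the 4 groups overlapped with each other. The log2 change with cold was 0.18 (interval -0.63 to 1.00, adjusted p = 0.752) in wild-type mice and 0.31 (interval -0.50 to 1.12, adjusted p = 0.743) in HY/HY mice, so that a rise of 1.00 on this scale lies within both intervals. Between genotypes the change was -0.18 at 30°C (interval -0.99 to 0.63) and -0.05 at 8°C (interval -0.87 to 0.76). In HY/HY mice the library with the lowest *Nrg4* was replicate 1 and the highest replicate 3 at both temperatures. White adipocyte markers were also highest in replicate 3 of each group (24600, 36100, 29200 and 37000 CPM), but in HY/HY mice they were lowest in replicate 2 (13600 and 26600 CPM), not in replicate 1. Their part in *Nrg4* was not tested. *Nrg4* overlaps *Fbxo22*, and 136 to 497 counts lay on the opposite strand against 1215 to 2931 on its own.

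*Metrnl* (chromosome 11, 121702427 to 121717389) had nearly the same mean in all groups: 10.5 ± 1.93 and 11.0 ± 1.5 CPM for the wild-type groups at 30°C and 8°C, 10.2 ± 1.97 and 10.5 ± 1.44 CPM for the HY/HY groups (SD, n = 3). Single libraries ran from 8.06 to 12.7 CPM, and the groups overlapped in each comparison. Its intervals were the narrowest of the 5 genes. The cold response was 0.07 in wild-type mice (interval -0.34 to 0.49, adjusted p = 0.815) and 0.04 in HY/HY mice (interval -0.38 to 0.45, adjusted p = 0.948), and at 8°C the genotypes differed by -0.06 (interval -0.48 to 0.36, adjusted p = 0.888).

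*Slit2* (chromosome 5, 47981291 to 48307735) was low and uneven. Wild-type libraries had 2.18, 3.64 and 1.86 CPM at 30°C and 4.38, 2.94 and 3.98 CPM at 8°C. HY/HY libraries had 7.25, 4.61 and 0.884 CPM at 30°C and 7.96, 5.81 and 3.98 CPM at 8°C. The highest and the lowest library at 30°C were both HY/HY, and the groups overlapped in all 4 comparisons. Changes were 0.54 with cold in wild-type mice (interval -0.67 to 1.76, adjusted p = 0.505), 0.47 in HY/HY mice (interval -0.69 to 1.63, adjusted p = 0.724) and 0.65 between genotypes at 8°C (interval -0.54 to 1.85, adjusted p = 0.53). The 4 Schwann cell markers summed to 205, 151 and 75.6 CPM in the 3 HY/HY libraries at 30°C, the same order as *Slit2* there. The sums of progenitor (618, 397 and 307 CPM), macrophage (318, 182 and 180 CPM) and lymph node markers (15.3, 5.61 and 4.63 CPM) had that order in these libraries too. In the other groups the Schwann cell markers summed to 88.1 to 155 CPM, and in none of these groups was their full order that of *Slit2*. In the HY/HY libraries at 8°C, progenitor (418, 390 and 309 CPM) and lymph node sums (7.32, 5.56 and 4.63 CPM) again had the order of *Slit2*. Macrophage sums there (277, 208 and 222 CPM) did not. None of the Schwann cell markers was called in any comparison, and the part of these cell types in *Slit2* was not tested.

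*Gdf15* (chromosome 8, 70629393 to 70632470) lay under the filter, at 0 to 14 counts in each library and 60 in all. Wild-type libraries had 2, 5 and 4 counts at 30°C (0.0906, 0.180 and 0.213 CPM) and 4, 11 and 14 counts at 8°C (0.297, 0.830 and 0.898 CPM). HY/HY libraries had 5, 5 and 0 counts at 30°C and 5, 3 and 2 at 8°C. The 3 wild-type libraries at 8°C were above those at 30°C, which held for 43.4% of the genes tested in that comparison in either direction, and HY/HY libraries overlapped between temperatures, as they did with wild-type libraries at 8°C. Fitted without a filter, the wild-type change was 2.03 (SE 0.69, interval 0.60 to 3.46, adjusted p = 0.0595) and was not called. Leaving out 1 library lets *Gdf15* through the filter in 10 of the 12 cases, and in 7 of those it was called higher (adjusted p from 0.0129 to 0.113 over the 10), so its call turns on the filter and on single libraries. At 8°C the change between genotypes was -1.55 without a filter (interval -3.00 to -0.09, adjusted p = 0.329).

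*Il6* (chromosome 5, 30013114 to 30019975) was at 0, 1 and 0 counts in wild-type mice at 30°C, 1, 0 and 1 at 8°C, while HY/HY libraries had 0, 2 and 1 at 30°C, then 2, 1 and 0 in the cold. All 12 libraries were at or under 3 counts, which correspond to 0.103 to 0.244 CPM, so a difference was not detectable at this depth and no fold is given. Across groups, the mean per kilobase of exon was 1.35 to 3.78 CPM for *Pm20d1*, 0.0789 to 1.83 for *Bmp8b*, 0.170 to 0.392 for *Slit2*, 0.0659 to 0.365 for *Gdf15* and 0.0111 to 0.0589 for *Il6*. The ranges of *Bmp8b*, *Slit2* and *Gdf15* overlapped.

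Receptors and partners of the 7 proteins were taken from lists written for each. With cold in wild-type mice, 10.3% of all genes were called higher and 6.93% lower. At 8°C, 1.51% of all genes were called higher in HY/HY mice and 4.42% lower. Of 21 tested genes of BMP signalling, 1 rose and 2 fell with cold in wild-type mice (median log2 change -0.03, against -0.07 over all genes). They were *Smad6*, an inhibitory SMAD, at 0.70 (adjusted p = 0.0328), *Bmp4*, a ligand, at -0.76 (adjusted p = 0.0185) and *Acvr1b*, a type I activin receptor, at -0.90 (adjusted p = 0.00188). At 8°C *Id1*, a target of BMP signalling, was lower in HY/HY mice at -0.77 (adjusted p = 0.0241), 1 of the 21. Of these calls, that of *Acvr1b* alone was kept in every alternative. The receptors *Bmpr1a*, *Bmpr2* and *Acvr1* were at 53.6 to 71.7, 47.7 to 67.8 and 22.2 to 28.8 mean CPM across the groups and were not called. With cold in wild-type mice, *Acvr1* (-0.38, adjusted p = 0.0335), *Id2* (-0.45, adjusted p = 0.0489) and *Id3* (-0.56, adjusted p = 0.0237) missed the call on the fold limit alone. *Bmp8a*, the gene most like *Bmp8b*, was under the filter.

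Among 11 tested genes of the EGF family and its receptors, 2 fell with cold in wild-type mice, where 6.93% of all genes were called lower. They were the receptors *Erbb2* (-1.04, adjusted p = 0.0298) and *Erbb3* (-1.16, adjusted p = 0.0257). Both calls were lost when 1 library was left out, among them wild-type replicate 2 at 30°C (adjusted p = 0.111 and 0.0951). *Erbb4*, the main receptor of NRG4, was at 0.675 to 1.37 mean CPM in the 4 groups. *Areg*, the ligand amphiregulin, had 101 ± 32.0 CPM in wild-type mice and 11.3 ± 5.37 CPM in HY/HY mice at 8°C (SD, n = 3), a change of -3.15 (SE 0.56, adjusted p = 0.00734) that held in every alternative. At 30°C *Areg* had 272 ± 166 and 58.1 ± 22.7 CPM in the same order, a change of -2.23 (adjusted p = 0.0641) that was not called. Every HY/HY library was there below every wild-type library, as for 18.3% of genes in either direction. The interaction of *Areg*, -0.93 (adjusted p = 0.591), was not called, so a genotype difference particular to the cold was not shown. *Egfr* was higher in HY/HY mice at 8°C at 1.01 (adjusted p = 0.0128). It lost the call without wild-type replicate 2 (adjusted p = 0.0551) or HY/HY replicate 1 (adjusted p = 0.059) at 8°C. Summed mammary epithelium markers, mostly *Krt8* and *Krt18*, were at 2070 to 3730 CPM in wild-type and 536 to 1490 CPM in HY/HY libraries at 30°C, and at 1390 to 1530 CPM and 901 to 1320 CPM in the cold. The median log2 change of the 7 markers was -1.01 with cold in wild-type mice, where 2 were called lower. Between genotypes it was -1.24 at 30°C and 0.63 at 8°C, opposite in sign to the sum at 8°C, and none was called: *Krt14*, *Krt5*, *Elf5* and *Csn3* had higher means in HY/HY mice there, *Krt8*, *Krt18* and *Epcam* lower ones. Their part in the levels of *Areg*, *Erbb2* and *Erbb3* was not tested.

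All 5 genes listed for PM20D1 were tested, and 3 of them fell with cold in wild-type mice (median -0.63) while *Pm20d1* rose. Of all genes, 6.93% were called lower there. *Acy1*, an enzyme that splits N-acyl amino acids in the cytosol, was at -0.63 (adjusted p = 0.00488) and held in every alternative. *Cndp1*, a dipeptidase, was at -1.46 (adjusted p = 0.0274) and *Faah*, a fatty acid amide hydrolase, at -1.12 (adjusted p = 0.024), and both calls were lost in several fits with 1 library left out. *Cndp1* had 11 to 21 counts in wild-type libraries at 30°C and 2 to 6 at 8°C. Its call was also lost with DESeq2 (adjusted p = 0.0554) and without a filter (adjusted p = 0.0528). With the strands counted together it was at -0.92 (adjusted p = 0.2). None of the 5 was called in the other 4 comparisons. Of 12 tested genes of IL6 signalling, 2 fell with cold in wild-type mice, against 6.93% of all genes. They were the receptor *Il6ra* (-0.97, adjusted p = 0.00956) and *Socs3*, a feedback inhibitor (-1.03, adjusted p = 0.00935). *Il6ra* had 26.7 ± 0.911 CPM at 30°C, against 13.6 ± 3.26 CPM at 8°C (SD, n = 3). The shared subunit *Il6st* was higher in HY/HY mice at 8°C, at 202 ± 23.7 CPM against 126 ± 6.51 CPM (0.68, adjusted p = 0.00657). These 3 calls held in every alternative.

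*Gfral*, the receptor of GDF15, had 0 counts in all 12 libraries, which allows up to 0.103 to 0.244 CPM. None of 7 tested partners of GDF15 was called in any of the 5 comparisons, and its coreceptor *Ret* was at 4.34 to 9.06 mean CPM. Likewise none of the 3 METRNL genes was called, with its receptor *Kit* at 42.9 to 57.7 mean CPM. Of 8 tested partners of SLIT2 (*Slit3*, *Robo1*, *Robo4*, *Srgap1*, *Srgap2*, *Srgap3*, *Sdc1* and *Gpc1*), 1 was called. *Slit3*, a sister ligand, was higher in HY/HY mice at 8°C at 1.07 (adjusted p = 0.022), where 1.51% of all genes were called higher. The call of *Slit3* was lost in 5 alternatives, each with 1 library at 8°C left out (adjusted p from 0.0677 to 0.0861). *Robo4*, the endothelial receptor, had 83.6 to 108 mean CPM, *Robo1* 2.86 to 3.96 mean CPM and *Robo2*, under the filter, 0.133 to 0.467 mean CPM. In all, 6 of the 15 calls among partners were kept in every alternative.

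Other secreted products of fat were set beside the 7. Of 20 tested, 4 rose and 2 fell with cold in wild-type mice, 0 were called by cold in HY/HY mice, and at 8°C 4 were lower and 3 higher in HY/HY mice. The shares of all genes called were 10.3% higher and 6.93% lower with cold in wild-type mice, and 4.42% lower and 1.51% higher at 8°C. Of the 16 calls over all comparisons 5 were kept in every alternative: the rises of *S100b*, *Fndc5* and *Fgf21* with cold in wild-type mice, and *S100b* at 8°C and in the interaction. Both genes that fell with cold (*Lep* and *Cfd*) and all 3 that were higher at 8°C (*Igf1*, *Lep* and *Retn*) lost the call in some alternatives. *S100b*, which supports the growth of sympathetic fibres in thermogenic fat, went from 2.41 ± 0.650 CPM at 30°C to 31.4 ± 3.27 CPM at 8°C in wild-type mice, with 3.84 ± 1.52 and 5.07 ± 0.318 CPM in the HY/HY groups (SD, n = 3). It rose by 3.69 on the log2 scale in wild-type mice (adjusted p = 1.7e-05), was lower in HY/HY mice at 8°C at -2.63 (adjusted p = 7.1e-04), and its interaction of -3.28 was called (adjusted p = 0.00691). All 3 calls held in every alternative. *Fndc5*, which encodes the precursor of irisin, rose by 3.08 in wild-type mice (adjusted p = 1.3e-04) and was lower in HY/HY mice at 8°C at -1.70 (adjusted p = 0.0113), a call lost without HY/HY replicate 3 at 8°C (adjusted p = 0.0574). *Fgf21*, a hormone with metabolic effects in liver and brain, rose by 4.89 with cold in wild-type mice (adjusted p = 0.00408), from 0.176 ± 0.123 to 5.08 ± 3.87 CPM. It had 2 to 3 counts in each HY/HY library at 8°C. *Igf1* was higher in HY/HY mice at 8°C at 1.15 (adjusted p = 0.0141), a call lost in several fits with 1 library left out, such as without wild-type replicate 2 at 8°C (adjusted p = 0.0564). At 30°C 1 of the 20, *Epdr1*, was called higher in HY/HY mice at 1.51 (adjusted p = 0.0447), against 0.562% of all genes. This call was lost in 11 alternatives.

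**Figure D4:**
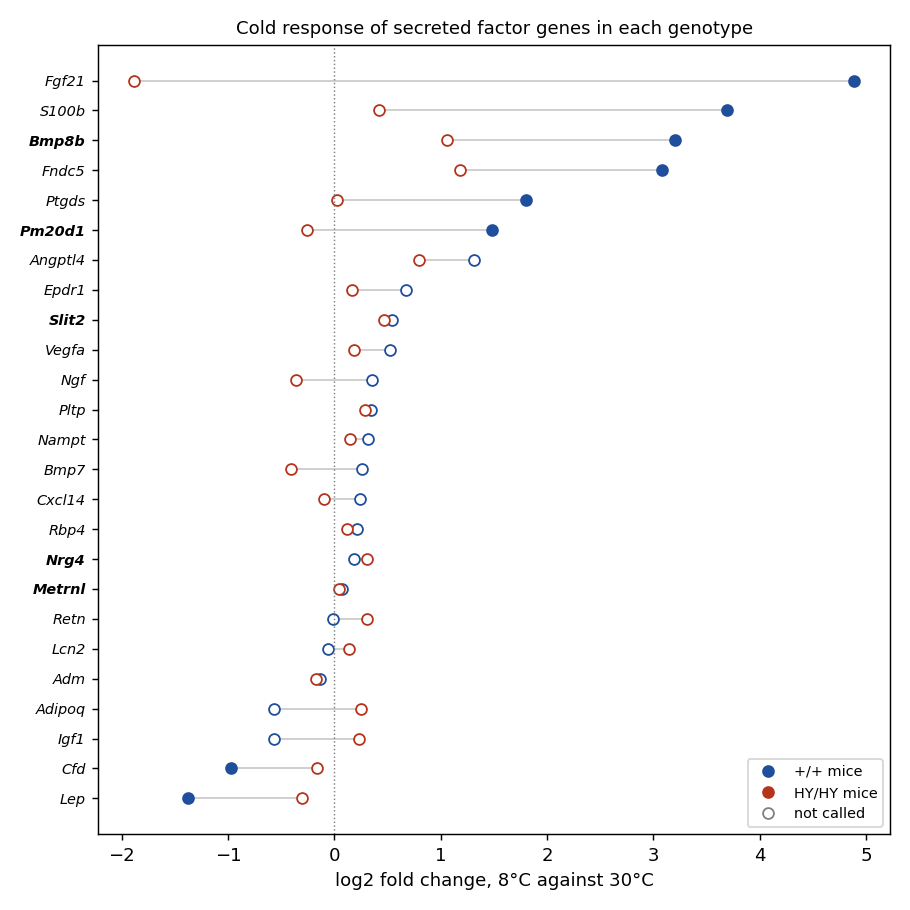
Fitted log2 fold change at 8°C against 30°C (horizontal axis) of the 5 genes that passed the filter (bold) and 20 other secreted factor genes, in wild-type (+/+, blue) and HY/HY (red) mice; open points were not called, and all 20 and 5 are open in HY/HY mice. *Bmp8b* and *Pm20d1* are at 3.20 and 1.48 in wild-type mice and at 1.06 and -0.26 in HY/HY mice.

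The genes whose levels ran most like each of the 5 were found by Pearson's r of log2 CPM over the 12 libraries among 14586 genes, as a description: the points share libraries, groups and depth. For *Bmp8b* they were *Dvl3* (0.96), *Ruvbl2* (0.96) and *Lsm4* (0.95), and for *Pm20d1* *Immp2l* (0.95), *Tmem110* (0.94) and *Akr1b8* (0.93). For *Nrg4* they were *Nampt* (0.96), *Cebpg* (0.92) and *Usp2* (0.91), although no group difference was called for *Nrg4*. *Metrnl* had lower values, with *BC030499* (0.87), *Fxyd5* (0.82) and *Nr2f1* (0.81). *Slit2* ran with *Drp2* (0.93), *Ugt8a* (0.93) and *4932418E24Rik* (0.92).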

How the data were processed

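Bulk RNA-seq of scWAT was performed by the authors on 12 libraries (paired reads). Reads were trimmed with fastp and aligned to mm10 with STAR, and the deposited counts are unnormalised read pairs per gene. The sense-strand column was used. The 4 entries that name no gene held 55.8% to 63.5% of pairs and were left out. Of 55401 IDs, 32589 were matched to a symbol, and 2645 IDs with shared symbols were left unnamed. Genes were kept by filterByExpr (16540) and fitted in edgeR 4.0.16 (R 4.3.3) with TMM factors (0.859 to 1.17), 1 mean per group and 8 residual degrees of freedom (common biological coefficient of variation 20.7%). Tests were two-sided with Benjamini-Hochberg adjustment. The labels do not state that each library is a separate mouse, so p-values measure the spread between these samples. A two-sided exact permutation test of 3 against 3 libraries cannot give a p below 0.1. Alternatives included DESeq2 1.42.0, other filters, scaling and strands, a replicate block, and each library left out. Exon lengths came from an older annotation of another build. Sequences and coordinates are RefSeq's on GRCm38.p6. Intervals of levels and floors of 3 counts cover counting error only. Figures were drawn with matplotlib. The 7 genes and all lists were chosen with earlier results of these data known. Genes named from lists are those with the 3 lowest adjusted p for each list and comparison, the receptors, and a few named after their values were seen.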

Additional observations from a re-analysis of the deposited data

Results flagged for a closer look

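A difference in cold response between the genotypes, tested as the interaction, was called in 5 of the genes described. These were 1 of the 5 genes that passed the filter, 2 of 20 other secreted factors and 2 of 8 thermogenic adipocyte markers, and no partner gene. Over all genes, 2.07% were called lower and 0.169% higher. The calls of *Fgf21* and *Ppargc1a* were not kept in every alternative. For *Pm20d1* the difference (HY/HY minus wild-type) was -1.74 on the log2 scale, with all 3 wild-type libraries higher at 8°C than at 30°C and the HY/HY libraries overlapping. Without wild-type replicate 1 at 30°C the adjusted p of this interaction was 0.0483, the highest over its alternatives. For the secreted factor *S100b* it was -3.28 and for *Fgf21* -6.77. The value of *Fgf21* rests on 2 to 3 counts in each HY/HY library at 8°C, 1 to 5 in each wild-type library at 30°C and 4 to 45 in the HY/HY libraries at 30°C. It was lost as a call in 8 fits with 1 library left out, and was -5.15 (adjusted p = 0.117) without HY/HY replicate 2 at 30°C. Among thermogenic adipocyte markers, *Cox7a1* had an interaction of -3.78, kept in every alternative, and *Ppargc1a* of -2.19. The call of *Ppargc1a* was lost in 10 alternatives, which were library totals in place of TMM (adjusted p = 0.065) and fits with 1 library left out (adjusted p up to 0.116, without HY/HY replicate 1 at 8°C). Groups of 3 libraries were not searched for outlying samples.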

How the results depend on the processing

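The calls of *Bmp8b* and *Pm20d1* were the same under every alternative in which the genes were tested, with values from 2.87 to 3.53 and from 1.15 to 1.61 for cold in wild-type mice, from -3.95 to -2.94 and from -1.32 to -0.96 between genotypes at 8°C, and from -1.90 to -1.54 for the *Pm20d1* interaction. With at least 10 counts required in every library *Bmp8b* is not tested, and the number of genes called by cold in wild-type mice and between genotypes at 8°C is 1 in each. With 1 library left out the first number is 2 to 3, the added gene being *Gdf15*. Of 535 values of single genes, 499 kept their side and 36 changed sign, none of them called. With library totals in place of TMM the sign changed for *Nrg4* with cold in wild-type mice (-0.14) and between genotypes at 8°C (0.07), for *Metrnl* with cold in wild-type (-0.26) and HY/HY mice (-0.11), between genotypes at 8°C (0.08) and in the interaction (0.15), and for the *Slit2* interaction (0.08). With each library left out, *Nrg4* ran from -0.02 to 0.42 with cold in wild-type mice, -0.01 to 0.73 in HY/HY mice, -0.60 to 0.13 between genotypes at 30°C, -0.37 to 0.19 at 8°C and -0.20 to 0.54 in the interaction. *Metrnl* ran from -0.06 to 0.21, -0.10 to 0.16, -0.16 to 0.12, -0.15 to 0.06 and -0.18 to 0.10 in the same order, and the *Slit2* interaction from -0.54 to 0.53. The cause of these changes was not tested.

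Same-numbered libraries deviated together with a correlation above 0.1 in 9 of 12 pairs (-0.06 to 0.35), and 16 of 24 library comparisons were best with their own number. The numbers name no shared animal or day in the labels. All 3 pairs were above 0.1 for cold in HY/HY mice (0.11, 0.20 and 0.30), and 2 of 3 in each of the other comparisons. In each HY/HY pair *Nrg4* and *Slit2* were higher at 8°C, and with the block their changes were 0.34 (adjusted p = 0.513) and 0.60 (adjusted p = 0.534), not called. With a replicate block, 2, 0, 0, 2 and 1 of the 7 genes were called in the 5 comparisons, as without it, while over all genes the block moved the count for cold in HY/HY mice from 30 higher and 11 lower to 128 and 32, and at 30°C from 93 and 73 to 215 and 304. Depth limits *Il6*, at or under 3 counts in all 12 libraries, and *Gdf15*, so in 4 of the 12 and at most 14 counts.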
